A study of Mus musculus with 2 samples.

Results

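Expression of 9 genes of glucose entry and trapping was compared in the gastrocnemius (GAS) muscle of *Gde5* skKO and WT mice. The genes are the transporters *Slc2a4*, *Slc2a1* and *Slc2a3*, the hexokinases *Hk2*, *Hk1* and *Hk3*, the trafficking brakes *Tbc1d4* and *Tbc1d1*, and the uptake inhibitor *Txnip*. Every non-control probe that carried one of these names or an older alias was kept, which gave 21 of the 41111 probes on the array, for 9 of its 27567 gene and transcript names. *Hk1* has 6 of them, *Tbc1d4* has 4, *Slc2a3* has 3, *Tbc1d1* and *Txnip* have 2 each, and the other 4 genes have 1 each.

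Total RNA of male mice aged 15 weeks on a normal diet was hybridized to 2 Agilent whole mouse genome arrays, each carrying both genotypes in different dyes. *Gde5* (*Gpcpd1*) encodes an enzyme that cleaves glycerophosphocholine, and the skKO mice are HSA-Cre;*Gde5* flox/flox, in which Cre driven by the human α-skeletal actin promoter removes a floxed exon in muscle fibres, so the vessel, nerve, fat and blood cells of the muscle keep the gene. The labels call the controls wild-type, and for other experiments of the study the methods name *Gde5* flox/flox littermates without Cre, on C57BL/6. Array 1 held skKO RNA in Cy5 and WT RNA in Cy3, and array 2 the reverse. The design text gives 5 mice per genotype but not how they were spread over the arrays. The labels do not say whether RNA was pooled, whether both arrays carried the same RNA, or whether the mice had been fasted or given glucose. The paper describes array results from muscle taken after a glucose injection and further transcriptomes from fasted mice, and which state these arrays hold was not settled from the labels. The values below therefore compare 2 hybridizations and carry no test across mice.

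Glucose enters muscle fibres by facilitated diffusion. In resting muscle most of the insulin-responsive transporter GLUT4 (*Slc2a4*) sits in intracellular vesicles, held there by the Rab GTPase-activating proteins TBC1D4 and TBC1D1, and insulin and contraction relieve this brake by phosphorylation. A hexokinase then phosphorylates glucose, which traps it in the cell and commits it to glycolysis or glycogen, while TXNIP, an arrestin-like protein made when glucose is plentiful, lowers uptake by drawing transporters from the cell surface.

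Of the 21 probes, 13 were tested, meaning that each array gave a signal well above background for at least 1 genotype, and for 10 of these both genotypes passed on both arrays. The other 8 probes were too dim and are given as values. A probe was called where the error model of the scanner software, Agilent Feature Extraction, gave a p under 0.05 on both arrays with the same direction. That p rests on the software's estimate of error within a single array. This rule called 586 of the 19094 tested probes of the array, or 3.07%, of which 301 were lower in skKO (1.58%) and 285 higher (1.49%). The deleted gene checked the labels: 3 probes of *Gpcpd1*, listed on the array as *Prei4*, were lower in skKO on both arrays, with mean log2 ratios from -3.18 to -2.93. The fourth *Gpcpd1* probe gave -0.05 and -0.47 and was not called. The share of spots well above background ranged from 44.6% to 53.2% over the 4 channels.

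**Figure D1:**
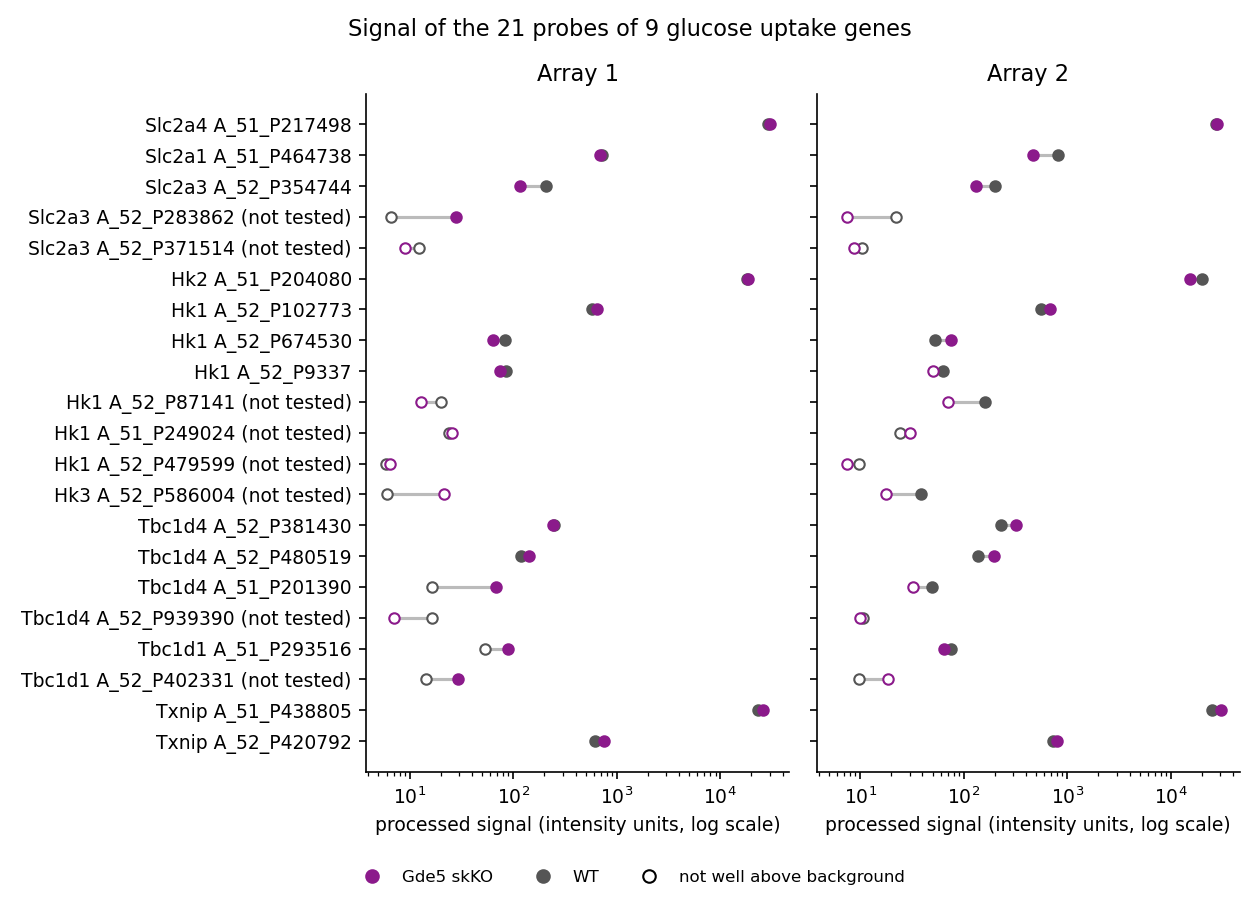
Processed signal (intensity units, log axis) of each of the 21 probes in *Gde5* skKO and WT on array 1 (left) and array 2 (right); open points were not well above background and lines join the genotypes of a probe. Genotypes lie almost on top of each other for *Slc2a4* on both arrays, *Slc2a3* A_52_P354744 is lower in skKO on both, and signals of different probes are not comparable with each other.

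Among the 13 tested probes of the 9 genes, 1 was called, a *Slc2a3* probe that was lower in skKO, and 0 were called higher, against 3.07% called over all probes in either direction. No share is read from a single call. limma's moderated test on the 2 arrays called 0 of the 13 at an unadjusted p under 0.05, where it called 8.09% of all tested probes, and 0 after Benjamini-Hochberg adjustment, where it called 0.602%. On array 1 alone 3 of the 13 had a p under 0.05 (13.1% of all tested probes did), and on array 2 alone 4 of the 13 (14.1% of all). The ratio kept 1 direction on both arrays for 8 of the 13, with 5 above 0 and 3 below, and all tested probes did so in 53.8% of cases. Over the 10 probes measured in both channels the median of the mean log2 ratio was 0.14, against 0.017 over all such probes. *Hk1*, *Tbc1d4* and *Txnip* hold 2 of the 10 each, all with means above 0. The median thus counts these genes more than the others, and no shift of the genes is read from it. The mean ratios of the 10 ran from -0.71 to 0.37.

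*Slc2a4* encodes GLUT4, the main transporter of muscle fibres, and it was the most closely measured gene of the set, with its probe A_51_P217498 (mm8 chr11:69758766-69758825, minus strand) printed on 10 spots. Its signal was 30208 in skKO and 29044 in WT on array 1, where 9 spots were usable, and 28263 in skKO and 27552 in WT on array 2. Genotypes differed by less than the spread over spots: the log2 ratio of skKO over WT was 0.06 on array 1, with single spots from -0.14 to 0.14, and 0.04 on array 2, with spots from -0.06 to 0.25. The mean was 0.05 ± 0.01 (SD, n = 2 arrays), a fold of 1.03. The error-model p was 0.701 on array 1 and 0.827 on array 2, and 1 SD of its error was 0.20 on each array. Both are medians over single spots, and that SD is not the error of the average over spots. limma's moderated test gave a standard error of 0.095 for its normexp mean of 0.03. A change of the *Slc2a4* transcript well beyond these errors was not seen in these RNAs. The smallest change that the averaged spots resolve was not worked out.

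*Slc2a1* encodes GLUT1, the insulin-independent transporter of basal uptake, which muscle fibres carry at a low level and which endothelial and perineurial cells also carry. Probe A_51_P464738 (chr4:118635191-118635250, plus strand) read 691 in skKO and 714 in WT on array 1 but 463 in skKO and 819 in WT on array 2. The arrays disagreed: the log2 ratio was -0.05 (error-model p of 0.819) on array 1 and -0.82 (error-model p of 0.000183) on array 2. The mean was -0.44 ± 0.55 (SD, n = 2 arrays), and the probe was not called. limma's moderated test over all probes gave an adjusted p of 0.735.

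*Slc2a3* encodes GLUT3, a high-affinity transporter best known from neurons and also used by leukocytes and platelets. Its probe A_52_P354744 (chr6:122693676-122693735, minus strand) read 117 in skKO and 206 in WT on array 1, and 133 in skKO and 203 in WT on array 2. WT was higher on both arrays, and this was the one call of the set. The log2 ratio was -0.82 (error-model p of 0.00148) on array 1 and -0.61 (error-model p of 0.0308) on array 2. The mean was -0.71 ± 0.14 (SD, n = 2 arrays), which makes WT 1.64-fold higher.

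The size of the *Slc2a3* difference moved with the processing of the signals. With limma's normexp correction and an offset of 50, the mean log2 ratio was -0.21, and without background correction it was -0.27. Both settings also put loess in place of the software's dye normalization, and the parts of the 2 choices were not separated. limma's moderated test gave an unadjusted p of 0.0573 and an adjusted p of 0.649, so the call does not pass there.

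The other *Slc2a3* probes were not tested. A_52_P283862, which the array annotation puts on chr17:83362051-83362111 and not beside the gene's other probes on chromosome 6, gave 2.11 and -1.57, with only the skKO channel of array 1 well above background. A_52_P371514 (chr6:122703374-122703433) was not well above background in any channel. Thus 1 of 3 probes carries the *Slc2a3* value.

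Markers of other cells of the muscle, some of them known for GLUT3 or GLUT1, were read beside these transporters. Of 10 myeloid and leukocyte genes 6 were tested and 0 were called, with 2 above 0 on both arrays, 2 below and a median of -0.11. The summed signal of the 6 was 8104 in skKO and 8792 in WT on array 1, and 7064 and 8719 on array 2. Most of that sum is *Lyz2*, which gave -0.13 and -0.34. *Cd68*, *Itgam*, *S100a8* and *Mpo* were too dim to be tested, and the pan-leukocyte gene *Ptprc* gave -0.38 and 0.18. Of 10 nerve and perineurial genes 8 were tested and 0 called, with a median of -0.04. Of 7 erythroid genes 4 were tested and 0 called, their median was -0.18, 2 were below 0 on both arrays and 0 above, and the hemoglobin gene *Hba-a1* gave -0.14 and -0.10. Of 9 endothelial genes all were tested and 1 (*Kdr*) was called higher, where 1.49% of all tested probes, not genes, were called higher. On both arrays 4 of the 9 were above 0 and 3 below, and the median was 0.04. For bulk muscle, fewer cells of a type and less RNA per cell cannot be told apart, and the part of these cells in the *Slc2a3* value was not tested.

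*Hk2* encodes hexokinase II, the main hexokinase of insulin-responsive muscle. Probe A_51_P204080 (chr6:82690720-82690779, minus strand) read 18534 in skKO and 18005 in WT on array 1, and 15414 in skKO and 19860 in WT on array 2. The genotypes lay close together on array 1, and WT was higher on array 2. The log2 ratio was 0.04 (error-model p of 0.838) and -0.37 (error-model p of 0.0770). The mean of -0.16 ± 0.29 (SD, n = 2 arrays) was smaller than the spread between arrays, and neither ratio passed.

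*Hk1* encodes hexokinase I, the form found in most tissues, and its 6 probes lie along the gene on the minus strand of chromosome 10. The brightest, A_52_P102773 (chr10:61664525-61664584), read 648 in skKO and 577 in WT on array 1, and 686 in skKO and 554 in WT on array 2. skKO was the higher genotype on both arrays, by 0.17 and 0.31 on the log2 scale, with an error-model p of 0.417 and 0.136. The mean was 0.24 ± 0.10 (SD, n = 2 arrays).

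The remaining *Hk1* probes were mixed. A_52_P674530 (chr10:61665344-61665403) gave -0.41 on array 1 and 0.51 on array 2, and A_52_P9337 (chr10:61710810-61710869) gave -0.20 and -0.30. Among the 3 that were not tested, A_52_P87141 (chr10:61753728-61753787) gave -0.64 and -1.17 with only the WT channel of array 2 well above background. A_51_P249024 (chr10:61666986-61667045) gave 0.09 and 0.32, in the direction of the brightest probe, and A_52_P479599 gave 0.00 on both arrays, both with no channel well above background. No *Hk1* probe was called, the mean over all 6 probes was -0.11, and the sign for the gene thus depends on the probe.

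*Hk3* encodes hexokinase III, which is known from myeloid cells. Its one probe, A_52_P586004 (chr13:55016161-55016220, minus strand), read 21.3 in skKO and 6.08 in WT on array 1, and 17.9 in skKO and 38.8 in WT on array 2. Of these 4 signals only WT on array 2 was well above background, the ratios of 1.81 and -1.12 pointed opposite ways, and *Hk3* was not tested.

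**Figure D2:**
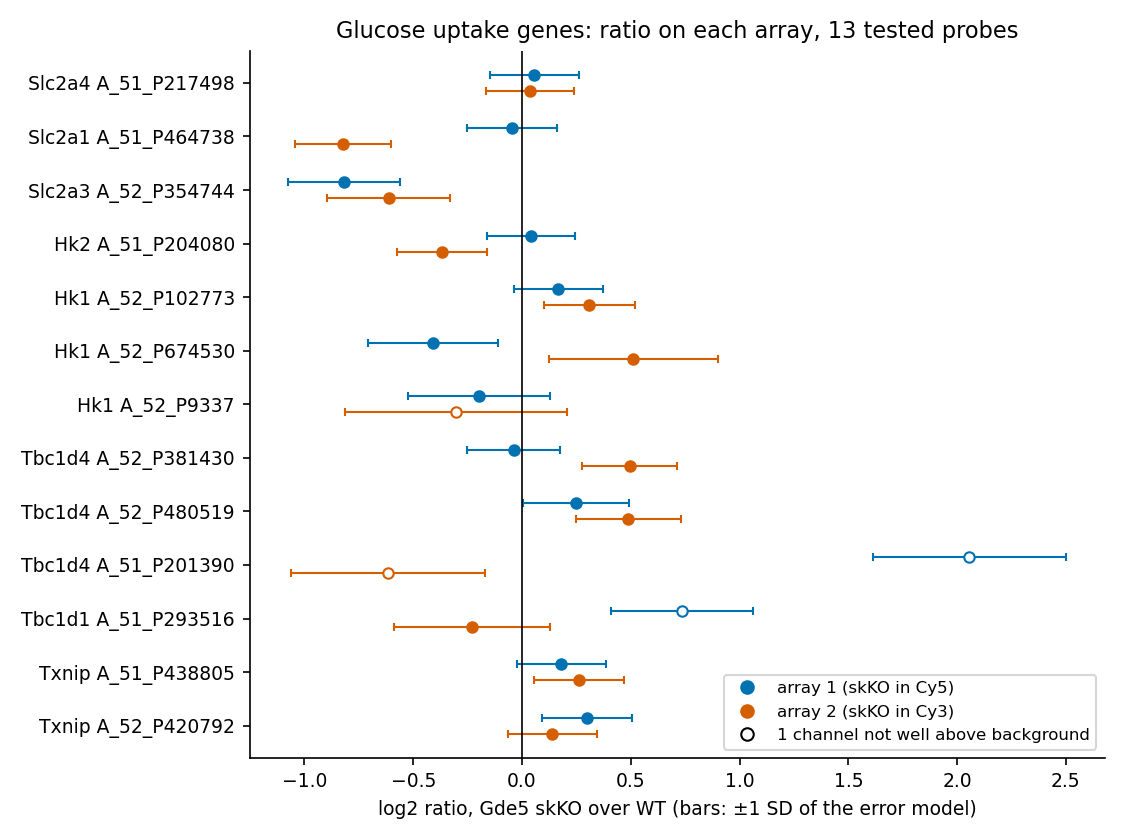
Log2 ratio of *Gde5* skKO over WT on array 1 and array 2 for the 13 tested probes, with bars of 1 SD of the Feature Extraction error model; open points had 1 channel not well above background. *Slc2a3* lies left of 0 on both arrays at -0.82 and -0.61, *Slc2a4* lies at 0.06 and 0.04, and *Txnip* lies right of 0 on both arrays for both probes.

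*Tbc1d4* encodes AS160, the Akt substrate that keeps GLUT4 vesicles inside the fibre. Probe A_52_P480519 (chr14:100327554-100327613, minus strand) read 141 in skKO and 119 in WT on array 1, and 194 in skKO and 139 in WT on array 2. Probe A_52_P381430 (chr14:100364387-100364446) read 240 in skKO and 246 in WT on array 1, and 322 in skKO and 229 in WT on array 2. For both probes skKO was the higher genotype on array 2. The log2 ratios there were 0.49 (error-model p of 0.0437) and 0.50 (error-model p of 0.0232). On array 1 the ratios were 0.25 (error-model p of 0.311) and -0.04 (error-model p of 0.860), and neither probe was called. The means were 0.37 ± 0.17 and 0.23 ± 0.38 (SD, n = 2 arrays), and 0.11 and 0.12 with normexp and loess.

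Another *Tbc1d4* probe, A_51_P201390 (chr14:100362212-100362271), had the largest mean ratio of the 13 tested probes and the least agreement. It gave 2.06 (error-model p of 3.58e-06) on array 1 and -0.62 (error-model p of 0.167) on array 2, and on each array the Cy5 channel alone was well above background. Its mean of 0.72 was 0.0037 with normexp and loess. The fourth probe, A_52_P939390, was dim in every channel.

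*Tbc1d1* encodes the related protein that contraction and AMP-activated kinase act on. A_51_P293516 (chr5:64629070-64629129, plus strand) read 89.1 in skKO and 53.6 in WT on array 1, and 64.6 in skKO and 75.8 in WT on array 2. The log2 ratio was 0.73 (error-model p of 0.0247) and -0.23 (error-model p of 0.520), so the arrays pointed opposite ways and the WT channel of array 1 was not well above background. A_52_P402331 (chr5:64629863-64629922) gave 1.02 and 0.96, but the skKO channel of array 1 was the only one well above background, and with normexp its mean was 0.069. A doubling of *Tbc1d1* cannot be read from signals this near the background.

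*Txnip* encodes the thioredoxin-interacting protein. Its transcription is driven by the glucose-sensing factors MondoA (*Mlxip*) and ChREBP (*Mlxipl*) with their partner *Mlx*, through a pair of E-box-like boxes in its promoter, and this promoter is shown because those boxes make the gene respond to glucose. The 250 bases before the start, from RefSeq on GRCm38.p6 (chr3:96557707-96557956, plus strand), carry in capitals both CACGAG boxes and 2 CCAAT boxes, one of them written on the other strand as ATTGG:
*Txnip* promoter: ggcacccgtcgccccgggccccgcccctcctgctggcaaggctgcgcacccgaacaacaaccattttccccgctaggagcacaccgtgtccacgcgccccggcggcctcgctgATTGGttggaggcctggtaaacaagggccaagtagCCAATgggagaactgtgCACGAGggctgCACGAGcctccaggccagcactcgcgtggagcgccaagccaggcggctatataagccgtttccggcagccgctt
The 2 CACGAG boxes, 5 bases apart, span positions 85 to 69 before the start. Searched on both strands, CACGAGNNNNNCACGAG was found in 1 of 32851 promoter windows of 300 bases (0.00304%), that of *Txnip*. The looser CACGNGNNNNNCNCGNG, which includes it, was in 120 windows (0.365%), and CCAAT was in 12289 (37.4%). The table held windows for 7 of the 9 genes, and among them CCAAT was found for *Hk2*, *Slc2a1* and *Txnip*. A match is a run of letters and was not tied to any value on the arrays.

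Both *Txnip* probes were higher in skKO on both arrays, and neither was called. A_51_P438805 (chr3:96646629-96646688 on mm8, plus strand) read 25995 in skKO and 22955 in WT on array 1, and 30265 in skKO and 25226 in WT on array 2. A_52_P420792 (chr3:96644567-96644741), whose annotated interval covers 175 bases, read 753 in skKO and 611 in WT on array 1, and 802 in skKO and 728 in WT on array 2. Each probe is a single spot per array, and no ratio passed on its own array.

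The log2 ratios were 0.18 (error-model p of 0.381) and 0.26 (error-model p of 0.201) for the first *Txnip* probe, and 0.30 (error-model p of 0.147) and 0.14 (error-model p of 0.499) for the second. The means were 0.22 ± 0.06 and 0.22 ± 0.11 (SD, n = 2 arrays), a fold of 1.17 and 1.16, and were 0.24 and 0.17 with normexp. limma's moderated test gave adjusted p of 0.688 and 0.851. This was the one gene of the 9 with several probes whose ratios all pointed the same way.

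**Figure D3:**
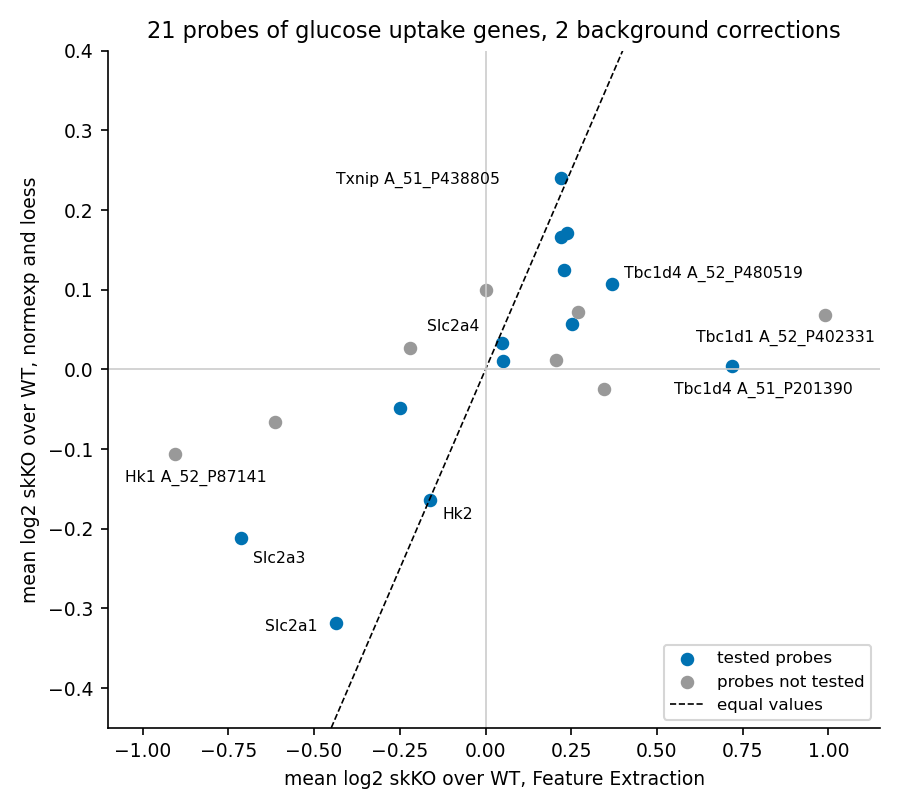
Mean log2 ratio over both arrays for each of the 21 probes under Feature Extraction (horizontal axis) and under normexp with loess (vertical axis, a narrower scale), with a dashed line of equal values. *Slc2a4*, *Hk2* and the bright *Txnip* probe lie on the line, whereas *Slc2a3* moves from -0.71 to -0.21 and *Tbc1d4* A_51_P201390 from 0.72 to 0.0037.

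Values were set side by side under both background corrections. For the 6 tested probes whose lowest of 4 signals was above 400, a value chosen after the signals were seen, the mean ratio moved by 0.0026 to 0.12 between Feature Extraction and normexp. These are the probes of *Slc2a4*, *Slc2a1*, *Hk2* and *Txnip*, and the brightest of *Hk1*. For the other 7 it moved by 0.040 to 0.72, and these include *Slc2a3*, *Tbc1d4* and *Tbc1d1*. The ranges overlap, and the added offset shrinks dim ratios by construction.

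Further genes of the pathway were read from 4 lists, with 65 genes reported, of which 62 were on the array and 48 were tested. Of the genes reported 0 were called by the Feature Extraction rule, which called 3.07% of all tested probes. limma's moderated test called 4 of the 48 at an unadjusted p under 0.05, and 0 after adjustment. Its unadjusted share was 8.09% of all tested probes. A gene counts where any of its tested probes passed, so gene counts and probe shares are not alike. The brightest probes of the 48 were above 0 on both arrays for 9 genes and below 0 on both for 16, and the median was -0.04.

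Among the other glucose transporters 3 of 11 genes were tested and 0 were called. *Slc2a12*, which encodes the insulin-responsive GLUT12, gave 0.02 and 0.00. *Slc2a8*, which encodes the intracellular GLUT8, gave 1.05 and -0.32. The liver transporter gene *Slc2a2* and the sodium-coupled *Slc5a1* and *Slc5a2* were too dim to be tested.

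Among the genes of hexose phosphorylation and glucose 6-phosphate use 8 of the 13 reported were tested and 0 were called. By the brightest probe of each, 1 gene was above 0 on both arrays and 2 were below. *Vdac1*, the mitochondrial channel that docks hexokinase, gave -0.30 and -0.44. *Ppp1r3a*, a glycogen-targeting subunit of protein phosphatase 1, gave -0.34 and -0.07 by its brightest probe, but its 2 tested probes averaged -3.8e-05. *G6pdx*, the first enzyme of the pentose phosphate pathway, gave -0.57 and 0.21. *Vdac1* was lower in skKO on both arrays but passed on array 2 alone (error-model p of 0.147 and 0.0340).

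Among the genes of GLUT4 vesicle traffic 24 of 27 were tested and 0 were called, with 4 above 0 on both arrays and 9 below. *Ralgapa2*, a subunit of the Ral GTPase-activating complex, gave 0.64 (error-model p of 0.0596) and 0.39 (error-model p of 0.352). Its mean of 0.51 was 0.13 with normexp and loess. *Rab8a*, a Rab acted on by TBC1D4, gave 0.51 and 0.07 by its brightest probe, and its 2 tested probes averaged 0.07. *Sort1*, which encodes the vesicle-sorting protein sortilin, gave 0.00 and -0.45. The ratios ran in both directions around a median of -0.03.

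Among the relatives and regulators of *Txnip* 13 of 14 genes were tested and 0 were called, with a median of -0.05. *Mlxipl*, encoding ChREBP, gave 0.32 and 0.29 by its brightest probe, and its 2 tested probes averaged 0.19. The α-arrestin gene *Arrdc3* gave 0.24 and 0.32, whereas its relative *Arrdc2* gave -0.44 and -0.31. The list ran both ways, with 4 genes above 0 on both arrays and 5 below. Of the other factors that drive *Txnip*, *Mlxip* gave -0.28 and 0.18. *Mlx* gave -0.11 and 0.31 by its brightest probe, and its 2 tested probes averaged 0.31.

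**Figure D4:**
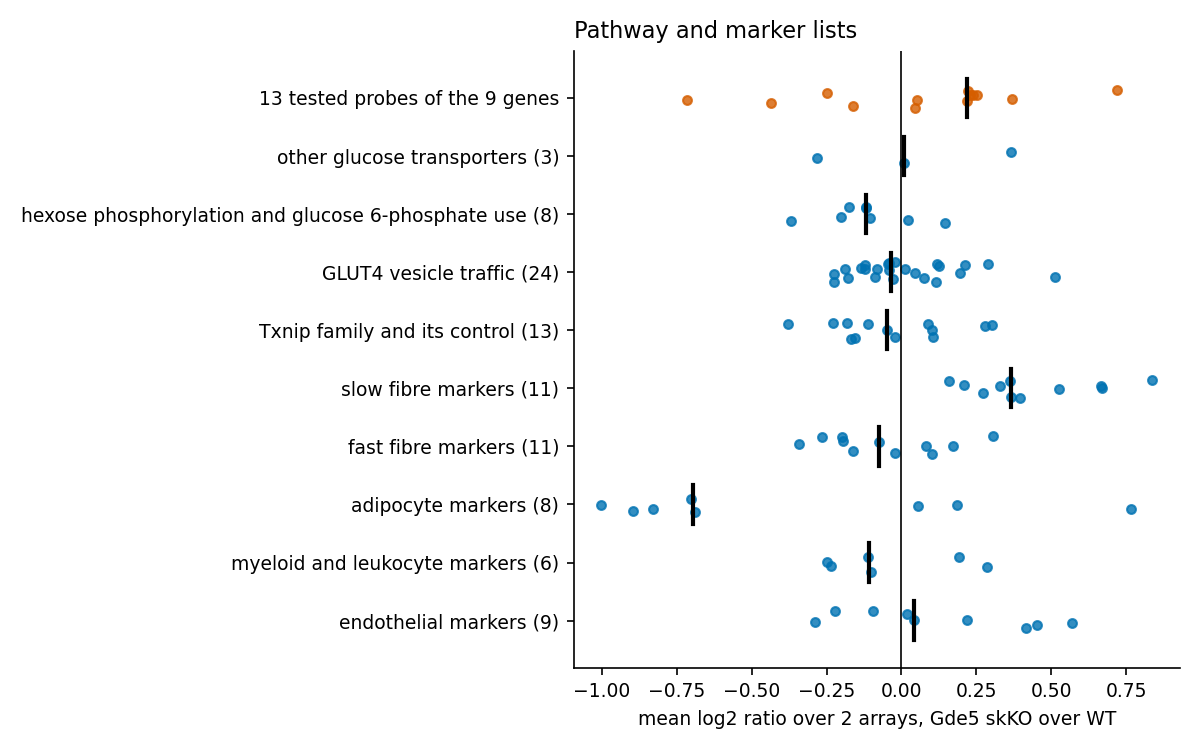
Mean log2 ratio of skKO over WT over both arrays for the 13 tested probes of the 9 genes and for the brightest tested probe of each gene in 4 pathway lists and 5 marker lists; the number of genes is in brackets and black bars are medians. The pathway medians lie between -0.12 and 0.01, the slow fibre median at 0.37 and the adipocyte median at -0.70.

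Markers of fibre type and of fat were read in the same RNAs. Muscle identity genes were present, with 10 of 10 tested and 0 called. Of 11 slow fibre genes 3 (*Myl2*, *Tnni1* and *Casq2*) were called higher. The share called higher over all tested probes, not genes, was 1.49%. Of the 11, 9 were above 0 on both arrays, among them the slow myosin gene *Myh7*, which gave 0.30 and 0.36 and was not called. By qPCR the paper describes fibre type mRNAs as comparable between skKO and WT. The summed signal of the 11 was 258559 in skKO and 191431 in WT on array 1, and 262354 and 198205 on array 2. Its largest part is *Mb*, also on the muscle identity list, which gave 0.36 on both arrays. Of 11 fast fibre genes 0 were called, 3 were above 0 on both arrays and 6 below, and their median was -0.07. GLUT4 and hexokinase II are known to be richer in oxidative fibres, which a list of slow fibre genes does not measure as such. The slow fibre median was 0.37, *Slc2a4* stood at 0.05 and *Hk2* at -0.16, and a link between these values was not tested.

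Of 8 adipocyte genes tested 5 (*Adipoq*, *Plin1*, *Cfd*, *Retn* and *Cidec*) were called lower, and *Cidea* higher. The share called lower over all tested probes, not genes, was 1.58%. The summed signal of the 8 was 44416 in skKO and 44462 in WT on array 1 and 42283 and 45844 on array 2. Most of that sum is *Fabp4*, which gave 0.13 and -0.02, while the adipokine gene *Adipoq* gave -0.97 and -1.03. Adipocytes also express *Slc2a4*, *Hk2* and *Tbc1d4*. The part of fibre type and of adipocytes in the values of the 9 genes was not tested.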

How the data were processed

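Two-colour Agilent arrays of *Gde5* skKO and WT GAS muscle were analysed, 2 in all, with the dyes swapped, on 1 slide and in 1 scan. Images were quantified by the authors in Feature Extraction (version 9.5.3.1 per the file headers), whose detrended, dye-normalized signals underlie the deposited log10 ratios, red over green. The deposited files also hold an error-model p-value per spot and the intensity of each channel, before and after processing. The series value table, also deposited, holds these log10 ratios rounded (r = 1 on both arrays). Per the labels the build is not stated, and coordinates follow the array's own mm8 annotation, whose gene models were not used here, so exon and UTR positions are not given.

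Ratios were converted to log2, turned to skKO over WT by the dyes in the labels, and averaged per probe, signals as geometric means and p as the median over spots. Spots with outlier marks (164 and 200 of 43379) and 8 with a local background over 2 times the array median were left out. The error model covers technical error of 1 array, so its p-values do not measure the spread between mice. Probes were named through RefSeq, 24488 by accession, 6240 by symbol and 2377 by synonym, and 8069 kept the array's name. In the lists a gene is read by its brightest tested probe, and called where any tested probe was.

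limma 3.58.1 under R 4.3.3 gave normexp and loess ratios and the moderated test with Benjamini-Hochberg adjustment over the 19094 tested probes. The scripts were tested on simulated data. The number of arrays limits the precision. For dim probes, bounds were at most 1.08-fold and are not given in the text. Named are all 9 genes, every gene of the 4 pathway lists with a called probe, the 3 of each list with the largest mean ratio among probes measured in both channels, and *Gpcpd1*. Other genes, the marker genes, *Mlx*, *Mlxip* and *Slc2a2*, *Slc5a1* and *Slc5a2*, were named after their values were seen. One list gene is not reported here, and the counts and medians of the lists leave it out. The genes and lists were chosen with earlier results of these data known. Alternatives were the background correction, the series table, filters, thresholds, other tests, single arrays and the choice of probe.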

Additional observations from a re-analysis of the deposited data

How the results depend on the processing

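The count of called probes among the 9 genes stayed at 1 with normexp, without background correction, with the series table, with either filter on dim probes, with a fold of at least 1.5, with the brightest probe of a gene, and with spots beside debris kept. It was 0 with a Feature Extraction p under 0.01, with that p adjusted within each array, with limma's moderated test, both unadjusted and adjusted, and with the methods' t-test after Benjamini-Hochberg adjustment, and 2 with the methods' t-test unadjusted, which takes the channel values of the arrays as replicates. From 1 array alone it was 3 to 4. The count of called pathway genes, among those reported, was 0, and became 4 with limma unadjusted, 4 with the methods' t-test unadjusted, and 7 to 9 from 1 array. Over all probes the count of 586 became 284 with a p under 0.01, 150 with the p adjusted within each array, 1545 and 115 with limma unadjusted and adjusted, 1604 and 0 with the methods' t-test unadjusted and adjusted, and 2509 to 2683 from 1 array. For *Slc2a3* the direction held under all of these, and *Hk1* turned from 0.24 by its brightest probe to -0.11 by the mean over its probes. The replicate number was not added as a block because each array carries both genotypes, so that its ratio, and limma's test on the ratios, are paired already, and slide as a block was not run because both arrays lie on 1 slide. A stricter threshold or a single array changes a count by construction, and for the other settings the cause was not tested.

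The limits are the signal over background, which leaves *Hk3*, 2 of the 3 probes of *Slc2a3*, 3 of the 6 of *Hk1*, 1 of the 2 of *Tbc1d1* and 1 of the 4 of *Tbc1d4* untested, and the 2 arrays, which do not show the spread between mice.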
